A study of Mus musculus with 36 samples.

Results

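The clustered protocadherins are the genes of the alpha, beta and gamma protocadherin clusters, which lie one after another on mouse chromosome 18. Members were all protein-coding genes of the count table, by the GENCODE M21 annotation, whose symbol begins with Pcdha, Pcdhb or Pcdhg. The rule found 57 members among 54842 genes, of which 14 belong to the alpha, 22 to the beta and 21 to the gamma cluster. Counts came from total RNA of 36 libraries of MEF (mouse embryonic fibroblast) cells, with 3 replicates in each of 12 groups. Both cell lines, MSR-dCas9-Control and MSR-dCas9-Activator, carry a guide RNA against the major satellite repeat (MSR), which was always expressed, and a catalytically dead Cas9 under a doxycycline-inducible promoter. In the MSR-dCas9-Activator line the dead Cas9 is fused to the transcriptional activator VPR. Each line was sampled without the drug, at the end of its doxycycline treatment (10 ng/ml), and at 4 time points after the drug was withdrawn (3, 6, 12 and 24 h). MSR-dCas9-Control cells were treated for 24 h and MSR-dCas9-Activator cells for 6 h, so effector and length of exposure cannot be told apart. The lines were made by transposon integration and kept as mixed cultures, with 1 line for each effector.

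Clustered protocadherins are cadherin-like adhesion proteins that are best known for giving neurons their individual surface identity. Each alpha and gamma gene has its own promoter and its own large first exon, which is spliced to constant exons common to the cluster, whereas each beta gene is a single large exon. CTCF and cohesin bring a promoter to distant enhancers, and DNA methylation, H3K9 methylation and SMCHD1 keep unused promoters silent. The C-type isoforms stand at the end of the alpha and gamma clusters and are regulated apart from the other isoforms.

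By the GRCm38 coordinates all members lie on the forward strand. The alpha genes span chr18:36930184-37187661, the beta genes chr18:37264938-37524479 and the gamma genes chr18:37661793-37841873. The alpha genes share 3 constant exon blocks of 2860 bases in all, and the gamma genes share 3 of 2119 bases. Beta genes share no exon apart from Pcdhb21 and Pcdhb22, which overlap by 455 bases. The symbol Pcdha11 belongs to 2 gene identifiers, and both were kept.

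Library depth ranged from 27376846 to 57371803 gene counts (median 42865961). No 2 libraries held identical counts. Values below are normalised counts, which are counts divided by the TMM-scaled library size and multiplied by its mean. The targeted repeat, GSAT_MM, took 0.00178% to 0.00804% of the counts in the MSR-dCas9-Control libraries and the uninduced MSR-dCas9-Activator libraries, and 0.189% to 2.78% in the other MSR-dCas9-Activator libraries. Replicate 2 of the induced MSR-dCas9-Activator group had the lowest of these shares, 0.189%, against 0.281% and 1.79% in the other replicates. At 24 h after removal, replicate 2 of the MSR-dCas9-Activator line stood apart from replicates 1 and 3 in many members, so results at these points are also given without these libraries. Of the 10 fibroblast markers, Col1a1, Col1a2 and Vim were abundant in both lines, and Thy1 stayed at or below 8.7 normalised counts in each library. In the MSR-dCas9-Activator line the summed fibroblast markers ranged from 638565 to 767029 at 12 h and from 459588 to 830004 at 24 h, against 957282 to 1011007 and then 1008267 to 1103910 in MSR-dCas9-Control libraries. The part of this shift in the results was not tested. In bulk RNA, fewer cells expressing a gene and less RNA per cell cannot be told apart.

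In MSR-dCas9-Control cells the gamma cluster dominated. Summed over members, the gamma cluster held between 9056 and 12769.9 normalised counts per library, the beta cluster between 1249 and 2290.1, and the alpha cluster between 0 and 4.42. The alpha cluster was therefore at or near 0, with at most 5 raw counts over its 14 members in a library. Per kilobase of exon, Pcdhgc3 had the highest level of all members, 822 ± 74.3 (SD, n = 18 libraries, which span 6 time points), followed by Pcdhb16 with 103 ± 18.9 and Pcdhgc4 with 95.7 ± 7.61. The difference between Pcdhb16 and Pcdhgc4 lay within their spread. With the whole count divided by the exon bases that no other gene of the same strand annotates, Pcdhgc3 reached 1340 ± 121 and Pcdhb16 kept its value. In that measure 12 gamma members came to stand between them or level with Pcdhb16. Reads of the shared exons stay in the gamma counts, so the measure itself raises gamma members against Pcdhb16.

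**Figure D1:**
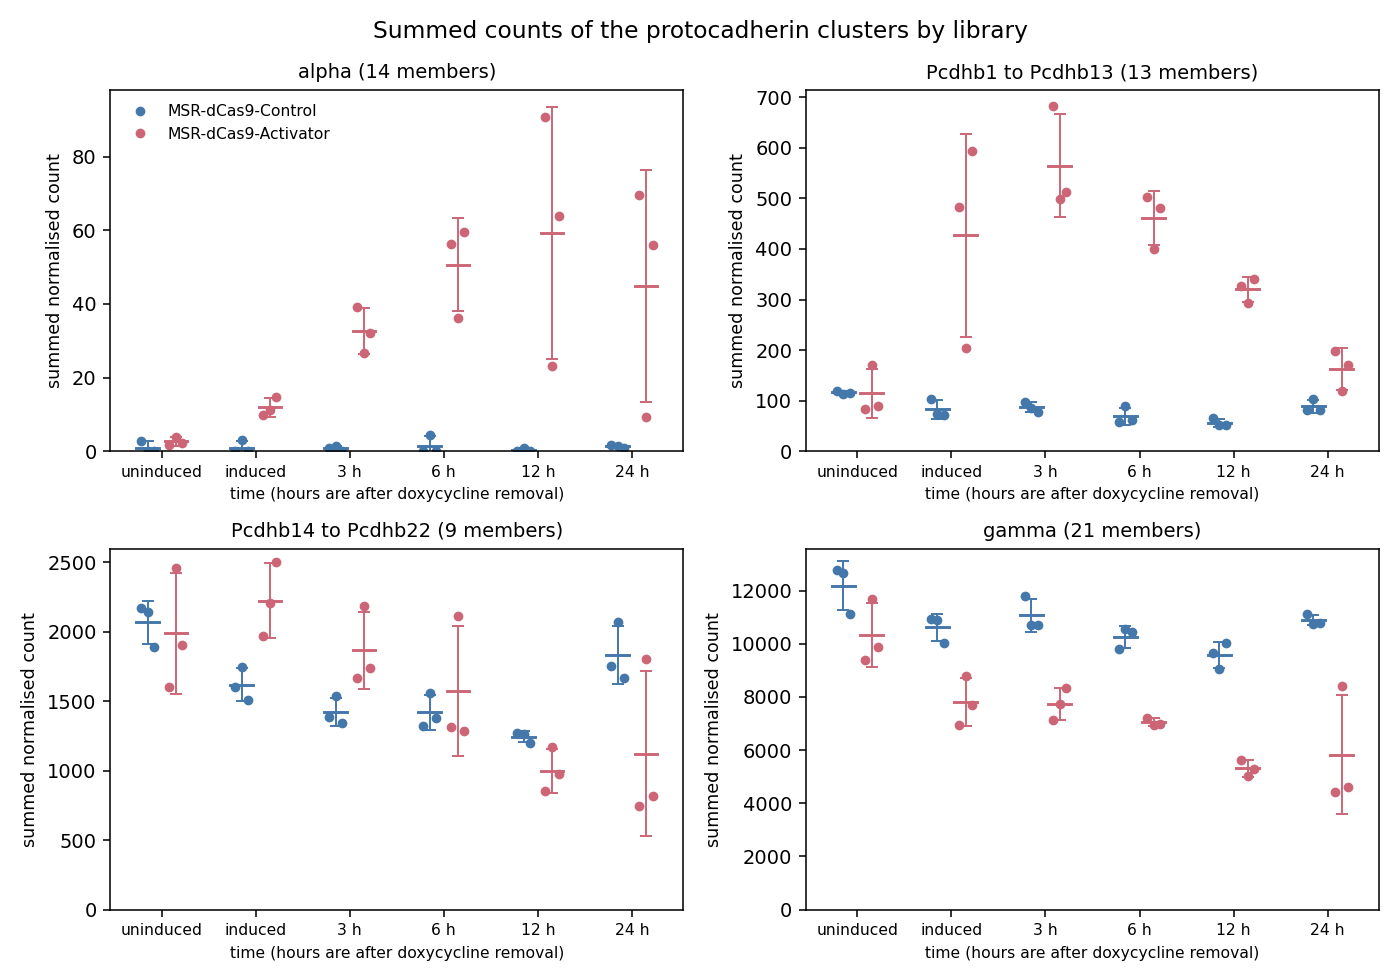
Summed normalised counts of the alpha cluster, of Pcdhb1 to Pcdhb13, of Pcdhb14 to Pcdhb22 and of the gamma cluster (linear axes from 0) against time, one point per library, with the mean and SD of 3 replicates. Alpha and the first 13 beta members were higher in induced MSR-dCas9-Activator libraries than in every MSR-dCas9-Control library, and the gamma sum was lower.

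Members of the beta cluster that were nearly silent in MSR-dCas9-Control cells were higher in MSR-dCas9-Activator cells after induction, whereas the gamma members were lower, most of them by less than 2-fold. Of these beta members, 8 could be tested only because of their counts in MSR-dCas9-Activator libraries. For them a higher value was nearly fixed in advance. Calls used the limits of the study, an adjusted p under 0.05 (edgeR's quasi-likelihood test, Benjamini-Hochberg over all 28536 genes tested), a change beyond 2-fold and a mean above 100 normalised counts. Under these limits no member was called before induction or after it, and 2 members were called at each of 3, 6, 12 and 24 h after removal, all lower. Over all genes these limits called 0.214% before induction, 8.48% after it, and 12.8%, 13.9%, 15.2% and 7.46% at 3, 6, 12 and 24 h. Before induction no member tested had an adjusted p under 0.05 by edgeR, 1 (Pcdhb2) had an unadjusted p under 0.05, and DESeq2 called none beyond 2-fold. Because most beta members have means below 100, counts are given from here on without the limit on the mean.

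Without that limit, 11 of 22 beta members were higher in MSR-dCas9-Activator cells after induction, where 22.1% of all genes were higher and 12.2% lower. Of these 11, 8 were testable through MSR-dCas9-Activator libraries alone, and of the other 14 beta members 3 were higher (21.4%). The number of higher beta members was 14 at 3 h (27.1% of all genes higher, 18.6% lower). It was then 11 (6 h, 28.6% and 19.6%), 12 (12 h, 31.3% and 18.9%) and 7 (24 h, 27.9% and 7.29%). No beta member was called lower at these points, and no gamma member was called higher. Gamma members called lower numbered 0 after induction and 2 of 21 at each later time point. Before induction neither cluster had a call, with 0.641% of genes higher and 0.109% lower. The median log2 fold change of the beta members was 1.31 after induction, 1.59, 1.34 and 1.55 at 3, 6 and 12 h, and 0.34 at 24 h, while that of the gamma members was -0.37, -0.43, -0.46, -0.73 and -0.84. Over all genes tested the medians were 0.10, 0.16, 0.13, 0.12 and 0.01. Scaling to the 13 mitochondrial mRNAs in place of TMM moved the median of all genes to -0.25 after induction and to -0.44 and -0.58 at the next time points. With that scaling 11 beta members were higher and 13 gamma members lower at 3 h, against 14 and 2 with TMM. Of all 28536 genes, 6303 were higher and 8935 lower at 3 h with that scaling, against 7731 and 5306 with TMM. The beta medians stayed the same with the members that had no count in the MSR-dCas9-Control group set to their lower bound.

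Whether a beta member could be tested depended on the MSR-dCas9-Activator libraries for 8 of the 22, namely Pcdhb1 to Pcdhb4 and Pcdhb10 to Pcdhb13. These 8 did not reach the minimum count in 3 MSR-dCas9-Control libraries, so a test of them could hardly come out otherwise than higher. Of the 14 beta members that reached it in MSR-dCas9-Control cells, 3 were higher after induction (21.4%). At the 4 later time points, in order, 6 (42.9%), 3 (21.4%), 4 (28.6%) and 1 (7.14%) were higher. These shares lie on both sides of those of all genes given above. The median log2 fold change of these 14 was 0.86 after induction and then 0.90, 0.58, 0.12 and -0.45. Taken over all 43 members tested, 25.6% were called higher after induction and 32.6% at 3 h, which is near the share of all genes.

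**Figure D2:**
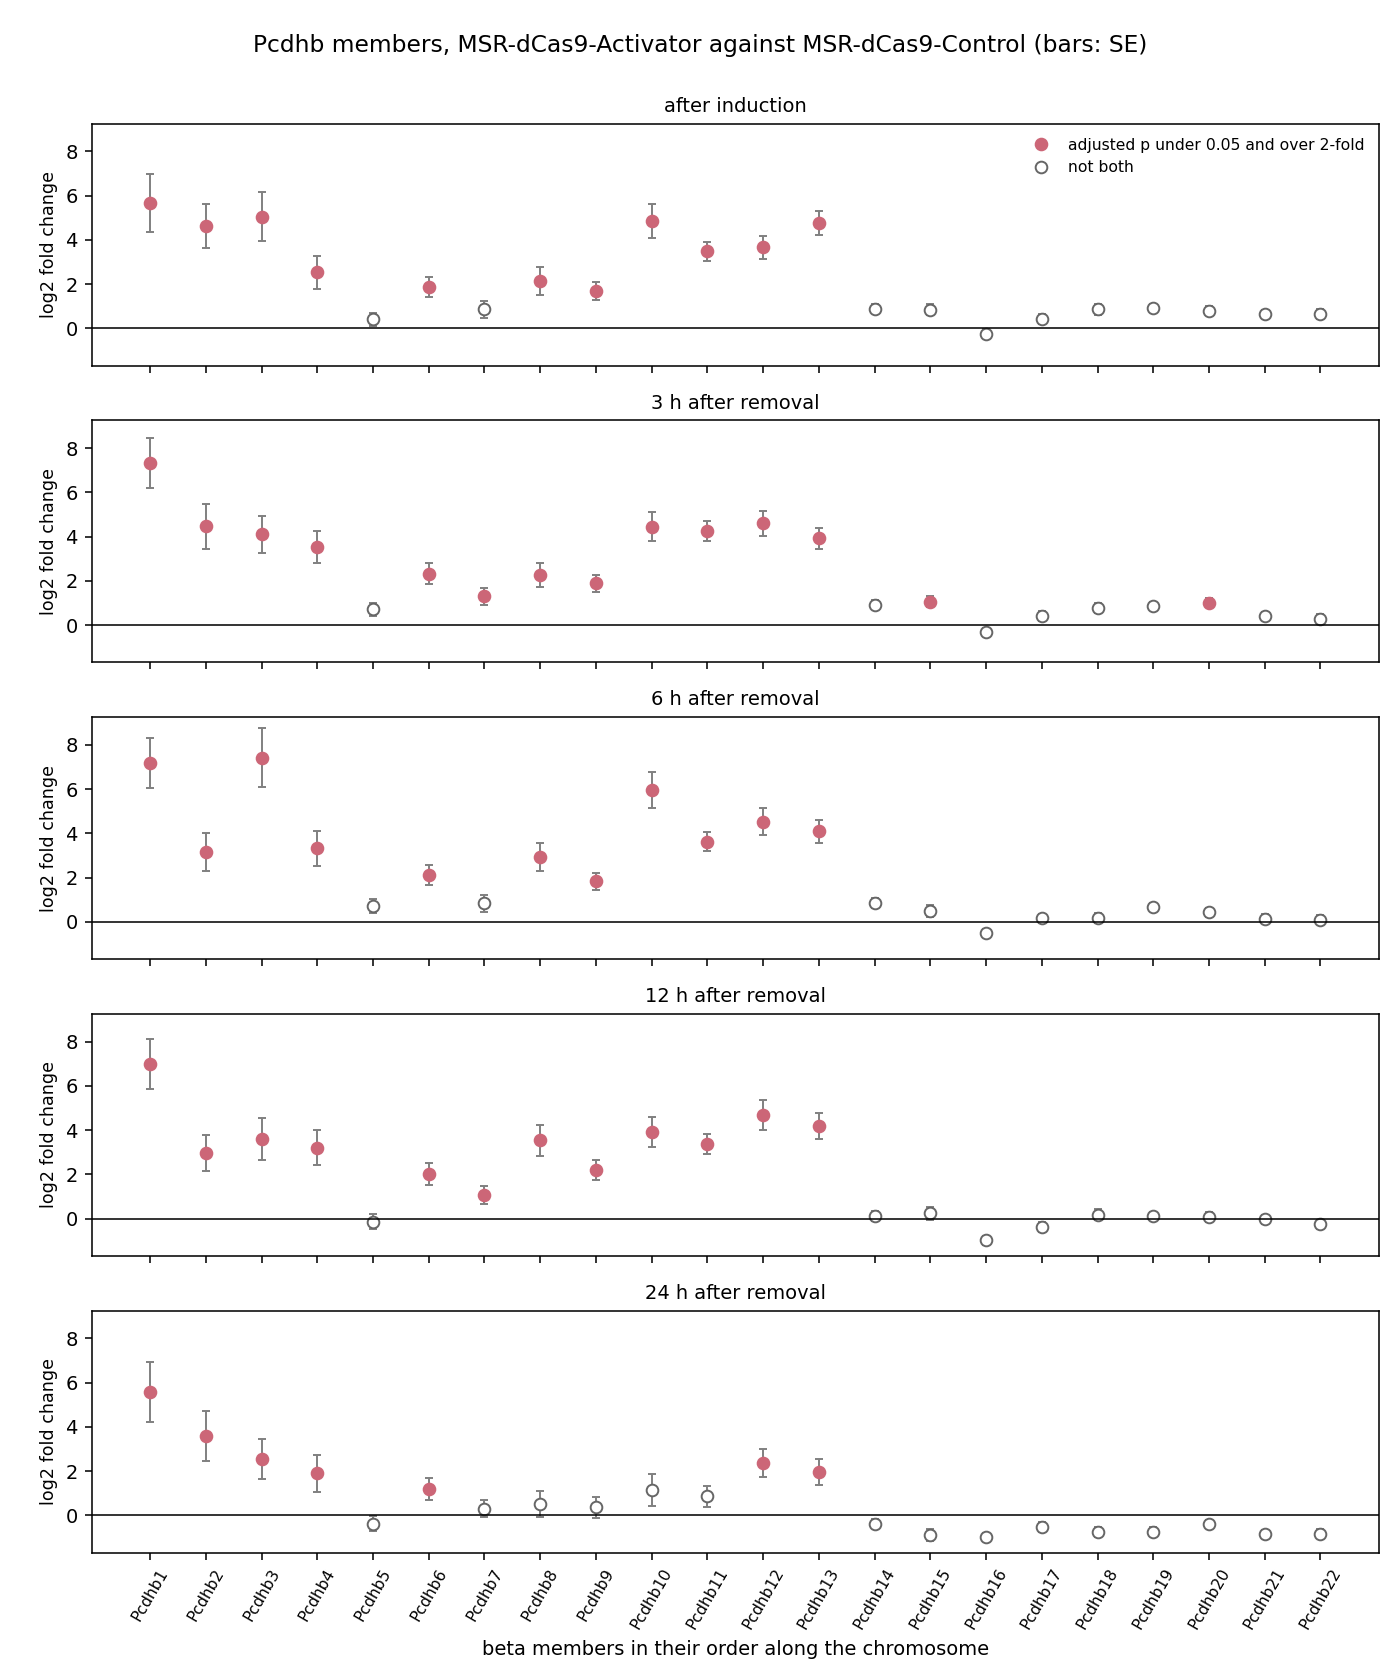
Log2 fold change (MSR-dCas9-Activator against MSR-dCas9-Control) of the 22 beta members in their order along the chromosome, at 5 time points, with standard errors from 3 replicates per group. Filled points passed an adjusted p of 0.05 and a 2-fold change. Most of the first 13 members lay well above 0 until 12 h, while the medians of the last 9 were 0.81 after induction, 0.08 at 12 h and -0.75 at 24 h.

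Along the beta cluster, the members differed by position. From Pcdhb1 to Pcdhb13, 11 of 13 were called higher after induction, and 12, 11, 12 and 7 at the 4 later time points in order, against 22.1%, 27.1%, 28.6%, 31.3% and 27.9% of all genes. The 8 members that were testable through MSR-dCas9-Activator libraries alone are all among these 13, so the contrast by position cannot be told apart from the filter. From Pcdhb14 to Pcdhb22, 7 of 9 passed an adjusted p of 0.05 as higher after induction and 7 of 9 as lower at 24 h, within 2-fold. At that limit alone 9057 of all 28536 genes were higher after induction and 8401 were lower at 24 h. None of the 9 was called after induction, 2 at 3 h (Pcdhb15 and Pcdhb20) and none later. This division was drawn after the values were seen and was not tested. Position also went with the level in MSR-dCas9-Control cells, since Spearman's correlation across the 22 members was 0.81 between order and level. This is a description across genes of the same libraries, and position and level cannot be told apart.

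Pcdhb11 to Pcdhb13, Pcdhb10, Pcdhb1 and Pcdhb2 are among the 8 members that passed the filter through MSR-dCas9-Activator libraries alone, and their fitted values are given as a description. Pcdhb11 had the highest mean of these. In MSR-dCas9-Control cells it held 8.65, 6.8 and 3.07 normalised counts after induction and 6.36, 7.96 and 2.07 at 3 h. In MSR-dCas9-Activator cells it held 4.41, 5.91 and 8.76 before induction, 80.5, 39.8 and 112 after induction and 126, 85.6 and 98.5 at 3 h. The groups did not overlap from induction to 12 h, and the values fell to 25.6, 4.69 and 15.8 at 24 h, where they overlapped with the 8.77, 11.3 and 5.45 of the MSR-dCas9-Control line. Its log2 fold change was 3.50 ± 0.43 (SE) after induction, 4.25 ± 0.45 at 3 h and 0.86 ± 0.49 at 24 h, or 1.22 ± 0.47 at 24 h without replicate 2 of the MSR-dCas9-Activator line, where it was called.

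Pcdhb13 followed the same course. It held 3.93, 0.972 and 0 normalised counts in induced MSR-dCas9-Control cells and 71.4, 32.1 and 66.5 in their MSR-dCas9-Activator counterparts, a 29-fold difference between the summed rates. The log2 fold change was 4.76 ± 0.55 after induction and still 1.96 ± 0.60 at 24 h, when the MSR-dCas9-Activator libraries held 13.3, 10.3 and 12.7. Pcdhb10 rose to 55.8, 9.96 and 62.2 after induction and to 66.7, 52.6 and 45.4 at 3 h, from 0.883, 6.9 and 2.19 in uninduced cells. In each of these members replicate 2 of the induced MSR-dCas9-Activator group was the lowest. Without that library, 17 beta members were called higher after induction in place of 11. The 17 include all 8 that were testable through MSR-dCas9-Activator libraries alone. With all libraries 22.1% of all genes were higher, and the number is not read as a result about the beta cluster.

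Pcdhb12 held 49.3, 15.5 and 71.7 normalised counts in induced MSR-dCas9-Activator cells and 4.72, 1.94 and 3.07 in induced MSR-dCas9-Control cells. An antisense gene, Gm37446, overlaps it and was higher in MSR-dCas9-Activator cells by 5.30 ± 0.65 on the log2 scale after induction. The strand setting of the counting is not given in the sources used here, so reads of both cannot be told apart.

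Pcdhb1, the first beta gene, had no count in any MSR-dCas9-Control library or uninduced MSR-dCas9-Activator library. In MSR-dCas9-Activator cells it held 6.57, 1.11 and 12.1 normalised counts after induction, 22.5, 9.8 and 25.5 at 3 h and 8.19, 0 and 9.49 at 24 h. Set against a floor of 3 counts over the MSR-dCas9-Control group, it was at least 6.9-fold higher after induction and at least 17.8-fold higher at 3 h. Pcdhb2 had the largest difference of all members before induction, with 2.16, 7.77 and 1 normalised counts in MSR-dCas9-Control cells and 0, 0.985 and 0 in MSR-dCas9-Activator cells. That difference, -2.91 ± 1.22 on the log2 scale, did not pass (edgeR, adjusted p = 0.357), and it rests on 11 raw counts in all.

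The highest beta members behaved otherwise. Pcdhb16 held 485, 642 and 482 normalised counts in induced MSR-dCas9-Control cells and 367, 544 and 461 in induced MSR-dCas9-Activator cells, and the groups overlapped. At 12 h it held 456, 465 and 438 against 203, 299 and 199, a log2 fold change of -0.98 ± 0.20 (edgeR, adjusted p = 6.11e-05), which passed the p limit but not that of 2-fold. At 24 h the MSR-dCas9-Activator libraries held 180.2, 579.8 and 224, with replicate 2 within the 567 to 696 of the MSR-dCas9-Control line. The log2 fold change there was -0.98 ± 0.19, and -1.48 ± 0.16 without replicate 2.

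Pcdhb17 and Pcdhb22, the next in level, did not exceed 2-fold at any time point with all libraries. Pcdhb22 held 238, 295 and 327 normalised counts in MSR-dCas9-Activator cells after induction, and 179, 195 and 175 in MSR-dCas9-Control cells, a log2 fold change of 0.65 ± 0.21. At 3 and 6 h the sign of both members depended on the scaling. By 24 h it had turned to -0.82 ± 0.21, and Pcdhb17 to -0.52 ± 0.22. Pcdhb14 held 217, 217 and 309 after induction against 152, 148 and 106, and 233, 263 and 187 at 3 h against 112, 130.0 and 115. Its change since the uninduced state exceeded that of the MSR-dCas9-Control line by 1.17 (log2) after induction and by 1.21 ± 0.30 at 3 h (edgeR, adjusted p = 0.00152).

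**Figure D3:**
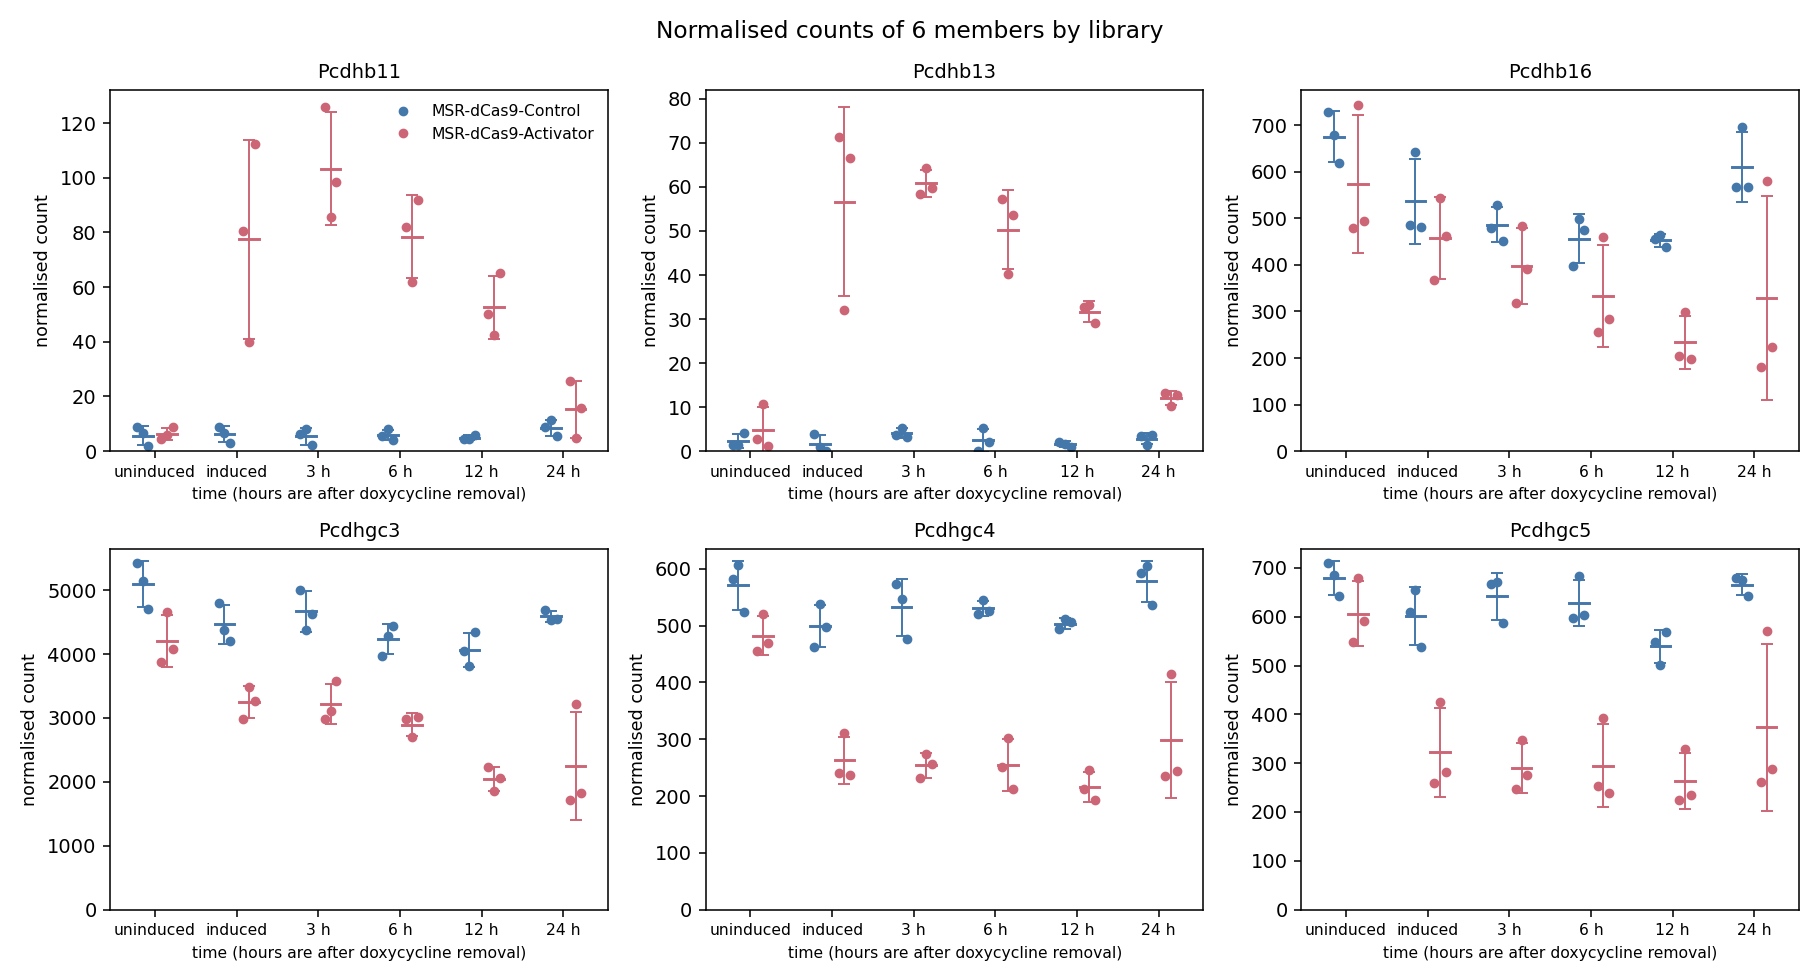
Normalised counts of Pcdhb11, Pcdhb13, Pcdhb16, Pcdhgc3, Pcdhgc4 and Pcdhgc5 (linear axes from 0) against time, one point per library, with the mean and SD of 3 replicates. The beta members Pcdhb11 and Pcdhb13 rose after induction and came down by 24 h, and the 3 gamma C-type isoforms stayed below the MSR-dCas9-Control line from induction on, least so in replicate 2 at 24 h.

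All 14 alpha members failed the filter on low counts, and their values are a description without a test in the main fit. In an edgeR fit without the filter, some passed an adjusted p of 0.05 as higher than in MSR-dCas9-Control cells from 3 h on. None passed there in the change since the uninduced state. With MSR-dCas9-Control counts at or near 0 and shared exons, that fit is not read as a result about single alpha genes. Their summed normalised counts were 1.77, 3.94 and 2.19 in uninduced MSR-dCas9-Activator cells and 9.85, 11.1 and 14.7 after induction. At 3 h the sums stood at 39.2, 26.7 and 32.1, and at 6 h they were 56.2, 36.3 and 59.5. They reached 90.9, 23.1 and 63.8 at 12 h and came to 69.6, 9.38 and 55.9 by 24 h. Every MSR-dCas9-Activator sum from induction on was thus above the highest MSR-dCas9-Control sum of 4.42, and replicate 2 was the lowest at each point after removal. The C-type isoform Pcdhac2 had no count in any MSR-dCas9-Control library and held 8.17, 0.924 and 8.7 normalised counts in MSR-dCas9-Activator cells at 12 h. Pcdhac1 held 9.19, 4.62 and 5.8 and Pcdha2 held 7.15, 3.7 and 10.2 in the same libraries. Reads from the constant exons cannot be assigned to 1 alpha gene, so these values do not show which promoter was used.

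For the gamma cluster the counts of most members carry little information of their own. The 18 members of the A and B types had means between 226 and 275 normalised counts over the 36 libraries, and within a library the highest of them was 1.16 to 1.43 times the lowest. Among beta members with a count, the highest was at least 15.2 times the lowest in each library. Gamma A and B members averaged a summed 342.4 counts above the lowest gamma member, whose own mean was 225.3. How reads of the shared exons were divided is not given in the sources used here, and the common level of these members cannot be told apart from such reads. They are therefore not independent measurements of 18 genes.

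**Figure D4:**
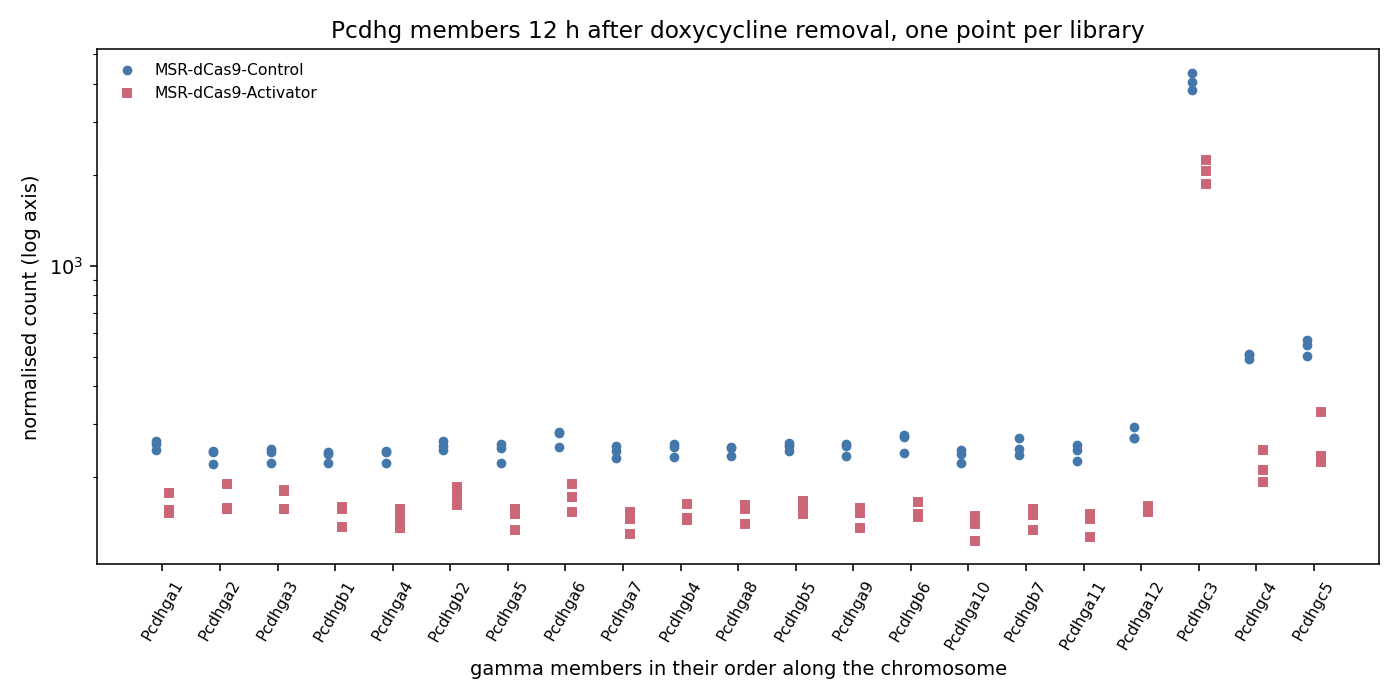
Normalised counts (log axis) of the 21 gamma members in their order along the chromosome 12 h after doxycycline removal, one point per library. The 18 A and B members lay at 1 common level in each line, and Pcdhgc3, Pcdhgc4 and Pcdhgc5 lay above it.

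The 3 gamma C-type isoforms stood above that level and were lower in MSR-dCas9-Activator cells. Pcdhgc4 held 573, 547 and 476 normalised counts in MSR-dCas9-Control cells at 3 h and 231, 274 and 257 in MSR-dCas9-Activator cells. Its log2 fold change was -0.93 ± 0.12 after induction, -1.07 ± 0.12 at 3 h (edgeR, adjusted p = 1.41e-08) and -1.22 ± 0.13 at 12 h, and before induction it was -0.24 ± 0.12, which did not pass. Pcdhgc5 held 667, 671 and 587 against 248, 348 and 276 at 3 h, a log2 fold change of -1.16 ± 0.17, and 680.0, 675 and 641 against 262, 570.5 and 288 at 24 h. Both were called at 3, 6 and 12 h. At 24 h neither was called with all libraries, and both were without replicate 2 of the MSR-dCas9-Activator line (-1.22 ± 0.11 and -1.20 ± 0.16).

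Pcdhgc3, the most abundant member, moved later. It held 4806, 4373 and 4212 normalised counts in induced MSR-dCas9-Control cells and 2984, 3485 and 3264 in induced MSR-dCas9-Activator cells, then 4047, 3815 and 4346 against 2235, 1862 and 2056 at 12 h. The log2 fold change was -0.46 ± 0.14 after induction, -0.99 ± 0.14 at 12 h and -1.03 ± 0.14 at 24 h (edgeR, adjusted p = 3.99e-07), where it was called together with Pcdhga12 (-1.05 ± 0.15). At 24 h replicate 2 held 3227 against 1714 and 1819.5 in the other replicates. Without replicate 2, Pcdhgc3 differed by -1.40 ± 0.10. Under all limits of the study 26 members were then called at 24 h in place of 2, 20 of them gamma members. In that fit 3147 of 29406 genes were called, against 2128 of 28536 with all libraries. Most of these gamma members were of the A and B types, which are not independent measurements. Without replicate 1 or without replicate 3 of the MSR-dCas9-Activator line at 24 h no member was called, and DESeq2 with all libraries called none either. The antisense gene BC037039 overlaps the start of Pcdhgc3 and moved with it, by -0.46 ± 0.15 after induction and -1.09 ± 0.15 at 24 h.

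Above the lowest gamma member, Pcdhgc4 kept 284, 281 and 215 normalised counts in MSR-dCas9-Control cells and 39.2, 73.1 and 37.6 in MSR-dCas9-Activator cells at 3 h. The means of this excess differed by 5.21 times, against 2.1 times for the whole count. For Pcdhgc5 the excess differed by 4.28 times at 3 h, against 2.21 for the whole count, and for Pcdhgc3 by 1.46 times, against 1.45. If shared reads were divided equally, this excess would be nearer to each gene's own reads. It is given without a test.

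Before induction the median log2 fold change of the gamma members was -0.23, none had an unadjusted p under 0.05 by edgeR, and DESeq2 called none beyond 2-fold. Measured as the change since the uninduced state in the MSR-dCas9-Activator line less that in the MSR-dCas9-Control line, the gamma median was -0.12 after induction and then, in order of time, -0.19, -0.23, -0.52 and -0.60. No gamma member exceeded 2-fold in this measure. The numbers that passed an adjusted p of 0.05 (edgeR) were 2 of 21 after induction and at 3 and 6 h, then 9 at 12 h and 15 at 24 h, all lower. Of all genes 17.7%, 25.7%, 27.7%, 28% and 18.7% were lower at this limit, so the first 3 numbers lie below that share. At 12 and 24 h, 6 of the 9 and 12 of the 15 were of the A and B types. These are not independent measurements, so the last 2 numbers cannot be set against that share. Beta members called higher in the same measure numbered 8 of 22 after induction (9.14% of all genes higher, 10.5% lower) and 12 at 3 h (12.8% and 17.5%). The later numbers were 10 (6 h, 13.7% and 18.4%), 7 (12 h, 16.4% and 17.5%) and 1 (24 h, 11.2% and 5.61%). Of the 14 that reached the minimum count in MSR-dCas9-Control cells, 3, 6, 4, 3 and 0 were called higher at these points. Under all limits of the study, Pcdhb14 was the member called, after induction and at 3 and 6 h.

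Within lines, 11 beta members were higher in induced than in uninduced MSR-dCas9-Activator cells (20.5% of all genes higher, 13.9% lower), and 6 were higher and 1, Pcdhb15, was lower at 24 h (27.1% and 6.54%). Of these, 8 of the 11 and 5 of the 6 were testable through MSR-dCas9-Activator libraries alone, and of the other 14 beta members 3 and 1 were higher. In the MSR-dCas9-Control line no member was called after induction, where 0.112% of all genes were, or at 24 h, where 0.21% were. No member there had an adjusted p under 0.05 by edgeR, with 5 at an unadjusted p under 0.05 after induction and 4 at 24 h, and DESeq2 called none. These within-line comparisons share the uninduced samples with the measure above.

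The silencing and looping factors known to act on the clusters were described as a list of 26 genes, all tested. Under all limits of the study 2 were lower after induction and 4, 3, 5 and 4 at the later time points in order, and none was higher. None was called before induction. Under the same limits 0.021% of all genes were lower before induction and 5.71% after it, then 9.45%, 10.3%, 10.9% and 4.12%, and no list was tested against these shares. The list's median log2 fold change was -0.10, -0.24, -0.26, -0.36 and -0.37. At 3 h the members called were Dnmt3b (-2.87 ± 0.22), a de novo DNA methyltransferase, Tet3 (-2.23 ± 0.28), which oxidises methylated cytosine, Setdb1 (-1.56 ± 0.15), an H3K9 methyltransferase, and Lrif1 (-1.12 ± 0.14), a partner of SMCHD1. Setdb1 held 4213.9, 4106 and 4169 normalised counts in MSR-dCas9-Control cells at 3 h and 1416, 1639.9 and 1205 in MSR-dCas9-Activator cells. Smchd1 was -0.26 ± 0.10 at 3 h and was called at 12 h (-1.08 ± 0.10) and 24 h (-1.03 ± 0.10). Ctcf differed by -0.52 ± 0.08 at 3 h, under 2-fold. Any part of these genes in the changes of the clusters was not tested.

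Of 11 protocadherins outside the clusters that were tested, 4 were called lower after induction, 5 at 3, 6 and 12 h and 3 at 24 h under all limits of the study. At 3 h they were led by Pcdh18 (-3.91 ± 0.36), Pcdh9 (-2.23 ± 0.18), Pcdh7 (-1.76 ± 0.32) and Pcdh1 (-1.28 ± 0.16). With no limit on the mean, 4 low members were higher at 3 h, among them Pcdh10 (7.57 ± 1.14), where 27.1% of all genes were higher. Of 9 classical cadherins tested, Cdh3 was the 1 called lower at 3 h (-1.26 ± 0.22), and with no limit on the mean 5 low ones were higher. Which libraries carried these low genes through the filter was not examined. Among 16 partners and processing enzymes, Axin1 (-1.74 ± 0.14) was the 1 called at 3 h.

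Of 25 neighbouring protein-coding genes on the chromosome, all tested, the numbers called lower from induction to 24 h were 1, 2, 3, 3 and 0, near the shares of all genes given for the factors, and Gnpda1 was called higher at 12 h (1.04 ± 0.16). The 25 include Gm42416, Gm37013 and Gm37388, which run from the alpha to the gamma cluster on the forward strand. These overlap the members and do not lie apart from them. At 3 h the genes called were Fchsd1 (-1.47 ± 0.23) and Pcdh1. With no limit on the mean, 3 neighbours were higher at 3 h, where 27.1% of all genes were higher. Among the 3 were Slc25a2 (1.70 ± 0.30), which lies between the beta and gamma clusters, and E230025N22Rik (2.74 ± 0.24), which lies before the alpha cluster.

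Markers of cell types other than fibroblasts were examined beside these results. Of 12 neuronal markers, 5 were tested, and Map2, Rbfox3, Snap25, Stmn2, Gap43, Nefl and Nefm stayed at or below 7.25 normalised counts in each library. Summed neuronal markers ranged from 1068 to 1294 in MSR-dCas9-Activator cells at 3 h and from 1011 to 1222 in MSR-dCas9-Control cells. Syt1 (6.12 ± 0.56), Syn1 (1.45 ± 0.17) and Dcx (3.76 ± 0.71) were higher at 3 h, of which Syn1 has a mean above 100. The other neuronal markers tested were not called at 3 h, where 27.1% of all genes were higher with no limit on the mean. Without that limit, 4 of the 5 were higher and 1 was lower at each of 6 and 12 h. Which libraries carried Syt1 and Dcx through the filter was not examined. Summed macrophage markers ranged from 821 to 968 at 3 h against 579 to 639, epithelial markers from 98.9 to 115 against 41.4 to 64.5, and glial markers from 923 to 1091 against 1860.1 to 2181. Before induction the epithelial sums already ranged from 88.7 to 130.7 against 36.7 to 53.1, and the neuronal sums from 1483 to 1658 against 1016 to 1423, while the macrophage and glial ranges overlapped. Their part in the results was not tested.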

How the data were processed

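Total RNA depleted of ribosomal RNA was sequenced by the authors as stranded paired-end libraries, trimmed with cutadapt, aligned to GRCm38 with STAR and counted with TEtranscripts, and the deposited values are whole-number counts without normalisation. The annotation release, the strand setting and the division of shared reads are not given in the sources used here. The 1 row that names neither gene nor repeat held 0.0021% to 0.00452% of the counts and was left out, and gene rows alone entered library sizes. Symbols and biotypes came from GENCODE M21, which 54495 of 54842 genes matched.

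Genes were filtered with filterByExpr (minimum count 10) and fitted in R 4.3.3 with edgeR 4.0.16 (TMM, robust quasi-likelihood) over 36 libraries by group with the replicate number as a term, as in the study's design. Each standard error was taken as the absolute log2 fold change over the root of its F statistic. P-values were adjusted by Benjamini-Hochberg over 28536 genes in each of 15 comparisons. On simulated counts, for the comparison at 3 h, 97 of 100 genes changed by 1.5 (log2) and 100 of 100 changed by 3 were called, with 1 false call among 26236 genes. The changed genes were drawn from those with means well above the limit of 100, and all others were left unchanged. These rates therefore do not cover the alpha members or most beta members. Named were the C-type isoforms, the 3 highest members of each cluster, the largest called changes at the time point with most calls (a tie, settled at 3 h by the counts without the limit on the mean) and the largest difference before induction. Pcdhb1, Pcdhb10 to Pcdhb15, Pcdhb19, Pcdhb20, Pcdhga10 and Pcdhga12 were picked out with their values in view. The members and lists were chosen with earlier results of these data known. The labels call the samples replicates, and p-values measure the spread between them. The floor of 3 counts covers counting error only. Alternatives used DESeq2 1.42.0, other scalings, limits and filters, no replicate block, and each library or replicate left out.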

Additional observations from a re-analysis of the deposited data

Results flagged for a closer look

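For these members the change since the uninduced state differed between the lines in the edgeR fit, at the time point with the lowest adjusted p of 5. It was higher in the MSR-dCas9-Activator line for Pcdhb2 at 3 h (7.38 ± 1.61 on the log2 scale, SE), Pcdhb10 at 6 h (5.16 ± 1.61), Pcdhb11 at 3 h (4.14 ± 0.77), Pcdhb12 at 3 h (3.23 ± 1.04), Pcdhb13 after induction (3.65 ± 1.07) and Pcdhb14 at 3 h (1.21 ± 0.30). It was lower for Pcdhgc3 at 12 h (-0.71 ± 0.20), Pcdhgc4 at 12 h (-0.98 ± 0.17), Pcdhgc5 at 3 h (-0.98 ± 0.23), Pcdhga10 at 24 h (-0.60 ± 0.21), Pcdhga12 at 24 h (-0.90 ± 0.21), Pcdhb16 at 12 h (-0.70 ± 0.27), Pcdhb19 at 24 h (-0.88 ± 0.26) and Pcdhb22 at 24 h (-0.88 ± 0.30). Adjusted p ranged from 3.68e-05 for Pcdhgc4 to 0.0332 for Pcdhb16. Groups of 3 were not tested for outlying samples. Pcdhb2, Pcdhb10, Pcdhb11, Pcdhb12 and Pcdhb13 passed the filter on low counts through MSR-dCas9-Activator libraries alone, most of the members above were picked with their values in view, and the time point is the one with the lowest p, so these p-values are too small. The value of Pcdhb2 rests on 1 raw count in uninduced MSR-dCas9-Activator cells and 10 in uninduced MSR-dCas9-Control cells.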

How the results depend on the processing

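Each value is the number of members called under all limits of the study, listed where it moved by over 1.5 times. The causes were not tested. For MSR-dCas9-Activator against MSR-dCas9-Control the numbers were 0 after induction and 2 at each of the later time points. Without the limit on the mean they were 11 after induction and 16, 13, 14 and 9 later, and without the limit on the fold change 17, then 21, 21, 22 and 27. With DESeq2, and with its size factors in edgeR, they were 1 after induction, 1 at 6 h, 1 at 12 h and 0 at 24 h. Library sizes without TMM gave 4 at 12 h and 0 at 24 h, no filter on low counts gave 0 at 24 h, and a fit of the compared groups alone gave 1 at 6 h, 1 at 12 h and 0 at 24 h. Scaling to the 13 mitochondrial mRNAs gave 2, 13, 21, 22 and 13. Of all 28536 genes that scaling called 5804, 6865, 7058 and 2908 at 3, 6, 12 and 24 h. Leaving out libraries or replicates gave 0 to 4 after induction and, in order of time, 1 to 3, 0 to 2, 1 to 4 and 0 to 26. The 26 came without MSR-dCas9-Activator replicate 2 at 24 h (3147 of 29406 genes called), and without replicate 1 or replicate 3 of that group the number was 0. Without MSR-dCas9-Control replicate 2 it was 4 at 12 h (4566 of 29387 genes called) and 4 at 24 h (2453 of 29452). At 6 h, 0 came without MSR-dCas9-Activator replicate 3, and after induction 4 came without MSR-dCas9-Activator replicate 2.

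For the change since the uninduced state, MSR-dCas9-Activator less MSR-dCas9-Control, the numbers were 1, 1, 1, 0 and 0 from induction to 24 h. Without the limit on the mean they were 8, 12, 10, 7 and 1, without that on the fold change 6, 4, 3, 10 and 19, and scaled to mitochondrial mRNAs 2, 3, 7, 21 and 3. In the main fit 1072 of all 28536 genes were called higher and 3035 lower in this measure at 12 h. Mitochondrial scaling moved the median of all genes, MSR-dCas9-Activator against MSR-dCas9-Control, to -0.49 at 12 h. The 21 members cannot be told apart from that shift. Without TMM they were 2 at 3 h and 2 at 12 h. Leaving out libraries gave 0 to 3 after induction, 0 to 2 at each of 3, 6 and 12 h, and 0 to 11 at 24 h, with 11 in the absence of MSR-dCas9-Activator replicate 2. In the MSR-dCas9-Activator line, induced against uninduced, the number of 0 became 11 without the limit on the mean, 11 without that on the fold change, 1 without TMM and 4 by mitochondrial scaling, and leaving out libraries gave 0 to 1. For 24 h against uninduced it became 7, 28 and, by mitochondrial scaling, 10, and leaving out libraries gave 0 to 24, with 24 in the absence of replicate 2 at 24 h. Of all genes, 3164 of 29406 were called without that library, and 2746 of 28536 by mitochondrial scaling. Before induction, and within the MSR-dCas9-Control line, the number was 0 under each alternative run.

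Some log2 fold changes, all within 2-fold in the main fit, changed sign. Under mitochondrial scaling Pcdhb17 came to -0.19 at 3 h and -0.52 at 6 h, Pcdhb22 to -0.31 and -0.61, Pcdhb14 to -0.47 at 12 h, and Pcdhb19 to -0.01 at 6 h and -0.51 at 12 h. Without TMM, Pcdhb22 was -0.04 at 6 h. Leaving out libraries gave -0.03 to 0.33 for Pcdhb17 at 6 h, -0.01 to 0.35 for Pcdhb22 at 6 h and -0.04 to 0.25 for Pcdhb19 at 12 h. Without the replicate block the numbers of called members were 0 after induction and 2 at each later time point, as with it. Same-numbered libraries of the lines correlated between -0.00993 and 0.178 in their deviations from group means, with 9 of 18 over 0.1, so the numbers were not shown to pair samples. Low counts limit the alpha members and the first 13 beta members, and shared exons limit the gamma A and B members.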
